A study of Danio rerio with 3 samples.

Results

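*lin-28b* morphant embryos were set against control MO-injected embryos at 5 hpf on miRCURY LNA miRNA arrays. The comparison took the arrays labelled Lin28B MO and Control MO, which are 2 of the 3 arrays in the series, with 1 array a side. On them were followed all probes named for a zebrafish miRNA, 218 probes with 4 spots each, which fill 872 of the 9984 spots. A further 2082 probes have 4 spots and no name in the deposited table, and they served as a description of each array. In each case total RNA came from wild-type embryos that had been injected with a morpholino, an antisense oligonucleotide (MO). The *lin-28b* MO lies over the splice donor site of the first intron of *lin-28b*, and the control MO is of another sequence. Splice-blocking MOs in general act on transcripts that the embryo itself makes. Whether this MO leaves spliced maternal *lin-28b* mRNA as it is was not measured here. The array holds miRNA probes and controls, so *lin-28b* mRNA was not measured and the labels could not be checked on the targeted gene. The sources used here do not say how many embryos were pooled.

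Lin-28 is an RNA-binding protein of the heterochronic pathway. In *C. elegans* and in mammals it binds precursors of the *let-7* miRNA and blocks their maturation, and *let-7* in turn represses *lin-28*. In the zebrafish embryo the *miR-430* family is made in large amounts when the zygotic genome becomes active and clears maternal mRNAs, while most tissue miRNAs appear only once their organs form. The arrays thus read embryos at a stage when few miRNAs are known to be abundant.

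Embryo RNA carried the dye Hy3, and the Universal Reference hybridised with it carried Hy5. The labels describe the material as blended in equal parts from each sample, without saying whether this refers to the reference. Each spot gave a Hy3/Hy5 ratio, the 4 ratios of a probe were averaged, and a fold is the log2 of that mean in *lin-28b* morphants over that in control MO-injected embryos. A miRNA was called bright when its mean Hy3 signal, in arbitrary intensity units, was over 100 on at least 1 of both arrays, and dim otherwise. A miRNA was counted as lower or higher when its fold passed 1.5 (0.58 on the log2 scale) and its spot CV stayed under 50% on each array. With 1 array a side no difference has a replicate check and no test was run. The SD given beside a log2 fold is over 4 spot folds, each pairing a spot of both arrays in the order of the deposited table. Any other SD is over the 4 spots of 1 array. Both kinds are technical, and their spread says nothing of how embryos vary. In RNA of whole embryos, fewer cells that make a miRNA and less of it per cell cannot be told apart.

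The *lin-28b* MO array was dimmer than the control MO array at bright probes in both dyes, and this touches every value that follows. Over 102 bright unnamed probes with a CV under 50%, the median log2 fold was -1.38 in Hy3, -0.88 in Hy5 and -0.41 in the ratio. Of all 135 bright unnamed probes 48 were over 100 for *lin-28b* MO and 134 for control MO, so part of the lower Hy3 was built into this choice. Over the 47 unnamed probes above 100 on both arrays the medians were -1.13 in Hy3, -0.90 in Hy5 and -0.13 in the ratio. The dimming was not seen on all control spots, since the median Hy3 signal of the 240 Hy3 landmark spots was 15550 for *lin-28b* MO and 13350 for control MO. Among 4 spike controls over 100 on both arrays, the log2 fold of the ratio lay between 0.02 and 0.12, and that of Hy3 between -1.10 and 0.02. The dimmer spike controls spread more widely in the ratio, from -0.98 to 0.18. What caused the dimming was not tested.

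Most of the bright miRNAs that were lower in *lin-28b* morphants belonged to the *miR-430* family. Of the 9 bright miRNAs, *miR-430c*, *miR-430j*, *miR-430a*, *miR-430b* and *miR-203a* were lower past 1.5-fold, 0 were higher, and *miR-148*, *miR-7a*, *let-7c* and *miR-17a** lay within 1.5-fold. Among all 111 bright probes with a CV under 50%, unnamed ones included, 37.8% were lower and 0.0% were higher, so a lower ratio was common among bright probes of any kind on this array. All 9 bright miRNAs had a fold below 0, with a median of -0.66 in the ratio, -1.06 in Hy3 and -0.85 in Hy5. The 9 were all over 100 on the control MO array, and 5 of them also on the *lin-28b* MO array. *let-7c*, *miR-7a*, *miR-203a* and *miR-148* were bright through the control MO array alone, so that a lower Hy3 signal in the morphants was built into their choice. At the edge of the rule, *miR-203a* (-0.66) and *miR-430b* (-0.67) were the bright miRNAs just inside and *miR-148* (-0.50) the one just outside. After centring on the 47 unnamed probes above 100 on both arrays, or on all zebrafish probes, *miR-430c* and *miR-430j* were past 1.5-fold, and after a within-array loess *miR-430c* alone was, at -0.71. With the arrays centred on the 102 bright unnamed probes, a choice made after seeing the data, *miR-430c* alone was, at -0.62, and with folds centred on the median fold of those 102, which is -0.41, 0 were and *miR-430c* had -0.55.

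**Figure D1:**
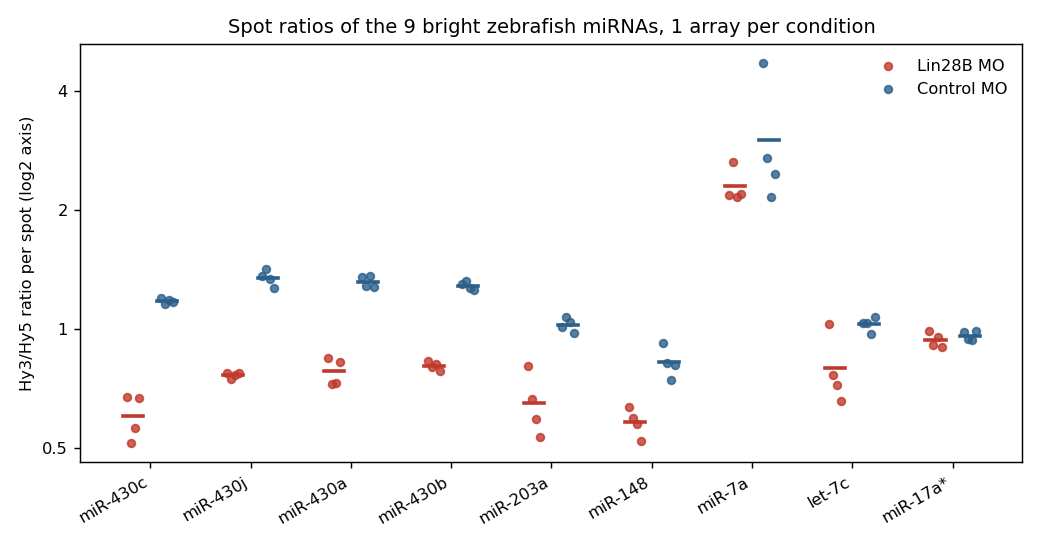
Hy3/Hy5 ratio of each of the 4 spots (points, log axis) of the 9 bright zebrafish miRNAs, with the *lin-28b* MO array (red) left of the control MO array (blue) and a line at the mean. For the 4 *miR-430* members, *miR-203a* and *miR-148* no spot of one array reaches the range of the other, while the spots of *miR-17a**, *miR-7a* and *let-7c* overlap.

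The *miR-430* family has 5 probes, named a, b, c, i and j. In the RefSeq table, which was used for names and neighbours alone, *miR-430a* has 18 gene copies, *miR-430b* 19, *miR-430c* 18 and *miR-430i* 3, many of them next to each other although those of *miR-430a* lie on 2 chromosomes, and no gene is listed under the name *miR-430j*. The members share much of their sequence, so that their probes may share signal and are not independent of each other.

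*miR-430j* and *miR-430b* were the brightest zebrafish miRNAs on both arrays. The spot ratios of *miR-430j* were 0.774, 0.749, 0.765 and 0.776 in *lin-28b* morphants, against 1.36, 1.42, 1.34 and 1.27 in control MO-injected embryos. For *miR-430b* they were 0.829, 0.804, 0.814 and 0.782 in *lin-28b* morphants, against 1.30, 1.32, 1.27 and 1.26 in controls. For both miRNAs the morphant spots lay below 1, the control spots lay above 1, and the ranges were far apart. The log2 fold was -0.82 (SD over spots 0.09) for *miR-430j* and -0.67 (SD 0.03) for *miR-430b*.

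*miR-430a* had spot ratios of 0.845, 0.728, 0.730 and 0.826 in *lin-28b* morphants, against 1.35, 1.28, 1.36 and 1.28 in control MO-injected embryos. *miR-430c* had 0.674, 0.515, 0.561 and 0.668 in *lin-28b* morphants, against 1.20, 1.16, 1.19 and 1.17 in controls. Again the arrays did not overlap, and the spots of *miR-430c* spread more on the *lin-28b* MO array (SD 0.079) than on the control MO array (SD 0.019). The log2 fold was -0.75 (SD 0.12) for *miR-430a* and -0.96 (SD 0.18) for *miR-430c*, which had the lowest fold of the bright zebrafish miRNAs.

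*miR-430i* was dim, with a mean Hy3 signal of 19.9 in *lin-28b* morphants and 21.0 in controls. Its spot ratios of 1.15, 1.65, 1.21 and 1.34 in *lin-28b* morphants overlapped those of 1.25, 1.65, 1.49 and 0.929 in controls, and its log2 fold was 0.01 (SD 0.35). It was thus the 1 family member without a lower ratio, at a signal far under that of the other 4.

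The dyes moved differently within the family. In Hy3, *miR-430j* averaged 438 in *lin-28b* morphants and 783 in controls, and *miR-430b* averaged 487.5 in morphants and 706 in controls. The Hy3 signal of *miR-430a* was 103.5 in morphants against 216 in controls, and that of *miR-430c* was 101 in morphants against 349 in controls. The log2 fold of Hy3 was thus -0.84 for *miR-430j*, -0.53 for *miR-430b*, -1.06 for *miR-430a* and -1.79 for *miR-430c*, an order other than that of the ratios. The Hy5 signal of the reference at the same spots gave log2 folds of -0.02 for *miR-430j*, 0.14 for *miR-430b*, -0.31 for *miR-430a* and -0.85 for *miR-430c*. Hy3 was lower at 4 of 4 spots for each of these 4 miRNAs. Hy5 was lower at 4 of 4 spots for *miR-430c*, at 3 for *miR-430a* and at 2 each for *miR-430b* and *miR-430j*. Single spots still overlapped in Hy3 at *miR-430b* and *miR-430j*. *miR-430b* read 604, 458, 417 and 471 in *lin-28b* morphants and 992, 828, 496 and 508 in controls. *miR-430j* read 664, 374, 319 and 396 in *lin-28b* morphants and 926, 815, 818 and 572 in controls. For *miR-430c* the Hy3 spots did not overlap, with 124, 77.3, 76.9 and 125 in *lin-28b* morphants against 412, 354, 344 and 286 in controls.

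Unnamed probes in the brightness range of the bright members gave 1 background for all of them, not matched to each member. All bright members but *miR-430c* lay outside it more in Hy5 than in Hy3. On the control MO array 45 unnamed probes lay in the Hy3 range of these 4 family members, from 216 to 783, and 43 of them had a CV under 50%. *miR-430a* lay at the lower edge of that range, at 216, and the dimmest of the 45 was at 217.5. Since the probes were chosen by the control MO array alone, a lower signal in morphants was in part built in. Their median log2 fold was -0.31 in the ratio, -1.20 in Hy3 and -1.01 in Hy5, and 10 of the 43 were lower past 1.5-fold. The ratio was as low as that of *miR-430a* in 6 of the 43, of *miR-430b* in 8, of *miR-430j* in 4 and of *miR-430c* in 1. The Hy3 fold, however, was as low as that of *miR-430a* in 28 of the 43, of *miR-430b* in 37, of *miR-430j* in 32 and of *miR-430c* in 10. In Hy5, all 43 unnamed probes had a lower fold than these 3 members, while 27 of the 43 were as low as *miR-430c*. The highest Hy5 fold among the 43 was -0.32. Choosing unnamed probes by the geometric mean Hy3 of both arrays instead, a choice made after seeing the data, gave 42 probes with medians of -0.20 in the ratio, -1.12 in Hy3 and -0.94 in Hy5. Their geometric mean reached 521 at most, while that of the brightest family member was 587. Of these 42, 41 had a lower Hy5 fold than these 3 members, while 24, 34 and 28 had a Hy3 fold as low as *miR-430a*, *miR-430b* and *miR-430j* in that order. The ratio of *miR-430a* and of *miR-430b* was reached by 2 of them each, that of *miR-430j* by 1 and that of *miR-430c* by 0. The sign of some of these folds depended on the scaling. Hy3 was also taken alone and scaled on the 47 unnamed probes above 100 on both arrays. The log2 fold was then 0.02 for *miR-430a*, 0.55 for *miR-430b* and 0.25 for *miR-430j*. *miR-430c* alone of these 4 was still below 0, at -0.71. That scaling moved all folds up, to a median of 0.99 over all zebrafish probes, so these 4 members still lay below that median. In the other settings tried the family median stayed below 0, between -0.84 and -0.34.

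**Figure D2:**
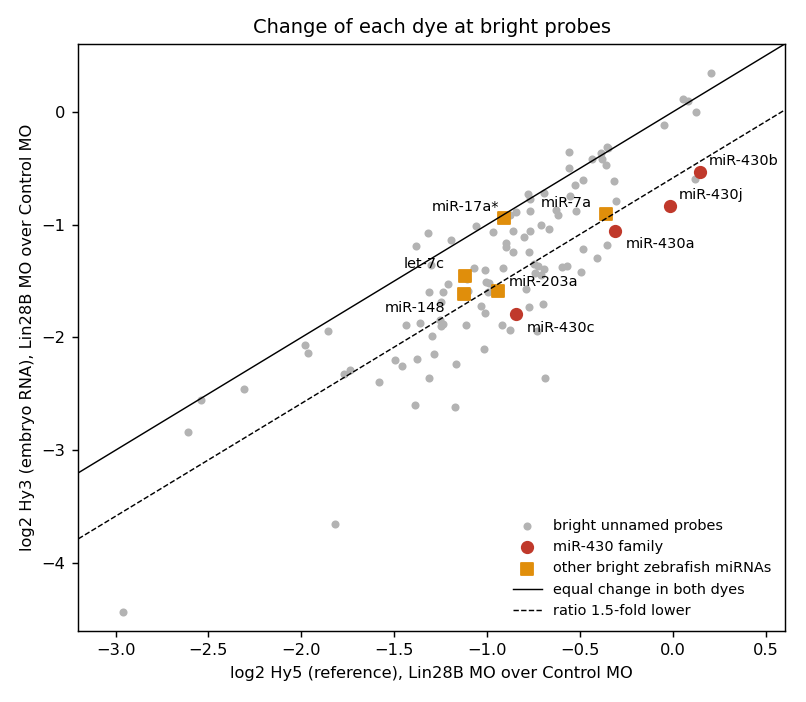
Log2 fold of the Hy3 signal (vertical) against that of the Hy5 signal (horizontal), *lin-28b* MO over control MO, for bright zebrafish miRNAs and bright unnamed probes with a CV under 50%. The solid line marks equal change in both dyes and the dashed line a ratio lower by 1.5-fold. Most points lie at or below the solid line and left of 0, and *miR-430b*, at 0.14 in Hy5, and *miR-430j*, at -0.02, lie towards its right side.

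The Lin28A MO array was compared with the same control MO array, so the values of both comparisons share their control and are only set side by side. The log2 folds of the ratio in *lin-28b* and *lin-28a* morphants were -0.75 and -0.70 for *miR-430a*, -0.67 and -0.96 for *miR-430b*, -0.96 and -0.76 for *miR-430c*, and -0.82 and -1.08 for *miR-430j*. In Hy3 alone, *miR-430c* had -1.79 in *lin-28b* morphants and -1.14 in *lin-28a* morphants, and *miR-430b* had -0.53 in *lin-28b* morphants and -0.45 in *lin-28a* morphants. The Hy5 folds in *lin-28b* and *lin-28a* morphants were 0.14 and 0.52 for *miR-430b*, and -0.02 and 0.42 for *miR-430j*. They were -0.31 and -0.10 for *miR-430a*, and -0.85 and -0.38 for *miR-430c*. For *miR-203a* the ratio gave -0.66 in *lin-28b* morphants and -0.13 in *lin-28a* morphants. Whether the morphants differ from each other could not be tested with 1 array each.

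*miR-203a*, which is known from mouse skin for moving epidermal cells from growth to differentiation, was the bright miRNA outside the *miR-430* family past 1.5-fold. Its spot ratios were 0.807, 0.665, 0.592 and 0.535 in *lin-28b* morphants, against 1.01, 1.07, 1.04 and 0.980 in control MO-injected embryos. Every morphant spot lay below every control spot, with a log2 fold of -0.66 (SD 0.24). The Hy3 signal was 81.5, 60.3, 51.1 and 48.9 in morphants against 216, 188, 181 and 144 in controls, a log2 fold of -1.59, and Hy5 was lower as well, by a log2 fold of -0.94.

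*miR-148*, whose human counterparts repress a DNA methyltransferase, had spot ratios of 0.634, 0.596, 0.574 and 0.522 in *lin-28b* morphants, against 0.922, 0.823, 0.743 and 0.812 in controls. The spots did not overlap, yet the log2 fold of -0.50 (SD 0.11) was short of 1.5-fold. Its mean Hy3 signal was 33.4 in morphants and 102 in controls. *miR-7a*, a miRNA of neurons and neuroendocrine cells, had ratios of 2.19, 2.65, 2.16 and 2.20 in *lin-28b* morphants, against 4.71, 2.71, 2.16 and 2.46 in controls. These overlapped, and the log2 fold of -0.39 (SD 0.52) was mostly that of 1 control spot, with -0.07 when the first spot was left out. That control spot read 240 in Hy3 while the other 3 lay between 55.7 and 69.0, so *miR-7a* was bright through it alone.

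*miR-17a**, the passenger arm of the *miR-17a* hairpin, had the same ratio on both arrays. Its spots gave 0.987, 0.910, 0.954 and 0.902 in *lin-28b* morphants and 0.981, 0.943, 0.937 and 0.991 in controls, with a log2 fold of -0.04 (SD 0.07). The ranges overlapped, with 2 morphant spots below and 1 control spot above the range of the other array. Both dyes were dimmer at it, with a mean Hy3 of 120 in morphants and 230.2 in controls, and a log2 fold of -0.94 in Hy3 and -0.91 in Hy5. Its main arm *miR-17a* was dim and had a log2 fold of -0.16.

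*let-7*, the miRNA whose maturation Lin-28 blocks, had no member past 1.5-fold among its 10 probes as deposited. After centring *let-7d* passed it, at 0.71 on the 47 unnamed probes and 0.76 on all zebrafish probes. With the arrays centred on the bright unnamed probes with a CV under 50%, *let-7d* (0.88), *let-7e* (0.63) and *let-7g* (0.62) passed it. With folds centred on the median fold of those probes, *let-7d*, *let-7e* and *let-7g* had 0.95, 0.70 and 0.69. Both of these choices were made after seeing the data. No member was then lower past 1.5-fold, and *let-7f* had the lowest fold, at -0.15 and -0.08 in that order. Each centring moved every fold up alike. Over all 210 zebrafish miRNAs with a CV under 50%, the centrings gave 13, 15, 20 and 26 higher past 1.5-fold, in the order named here. As deposited, *let-7d*, *let-7e* and *let-7g* were dim, and their Hy3 had log2 folds of -0.22, -0.37 and -0.20. Their Hy5, from the reference, fell further, with -0.74, -0.61 and -0.47, so their higher ratios did not come with a higher Hy3 signal. *let-7c* was the bright one, with spot ratios of 1.03, 0.767, 0.723 and 0.658 in *lin-28b* morphants, against 1.03, 1.04, 0.970 and 1.07 in control MO-injected embryos. The highest morphant spot lay inside the control range and the other 3 lay below it, for a log2 fold of -0.37 (SD 0.29). In Hy3 it averaged 61.5 in morphants and 168.5 in controls, a log2 fold of -1.45, beside -1.12 in Hy5. The other 9 members were dim, and *let-7b* was the brightest of them, with a mean Hy3 of 49.4 in morphants and 96.5 in controls and a log2 fold of -0.16 in the ratio. Log2 folds of the ratio were -0.49 for *let-7f*, -0.46 for *let-7j*, -0.42 for *let-7i*, -0.23 for *let-7h* and -0.07 for *let-7a*. Those above 0 were 0.53 for *let-7d*, 0.29 for *let-7e* and 0.28 for *let-7g*. At *let-7f* and *let-7i* the lower ratio came mostly with a higher Hy5, at 0.35 for each, beside -0.14 and -0.06 in Hy3. *let-7j* had -0.67 in Hy3 and -0.22 in Hy5. The family median was -0.19, beside -0.14 over all 210 zebrafish miRNAs with a CV under 50%, and it was 0.04 with the arrays centred on the median zebrafish miRNA. In Hy3 alone all 10 members had a fold below 0, beside 66.2% of the 210 zebrafish miRNAs with a CV under 50%. With Hy3 scaled on the 47 unnamed probes the *let-7* median was 0.79, below that of all zebrafish probes, at 0.99. In the RefSeq table the *let-7c* genes lie beside genes of *miR-125b*, *miR-125c* and *miR-99*. The *miR-125* group, vertebrate relatives of *lin-4* with *miR-99* and *miR-100*, had 5 probes, all dim, of which 4 passed the CV limit and 0 passed 1.5-fold, with *miR-125a* at -0.29 and *miR-125b* at 0.16.

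**Figure D3:**
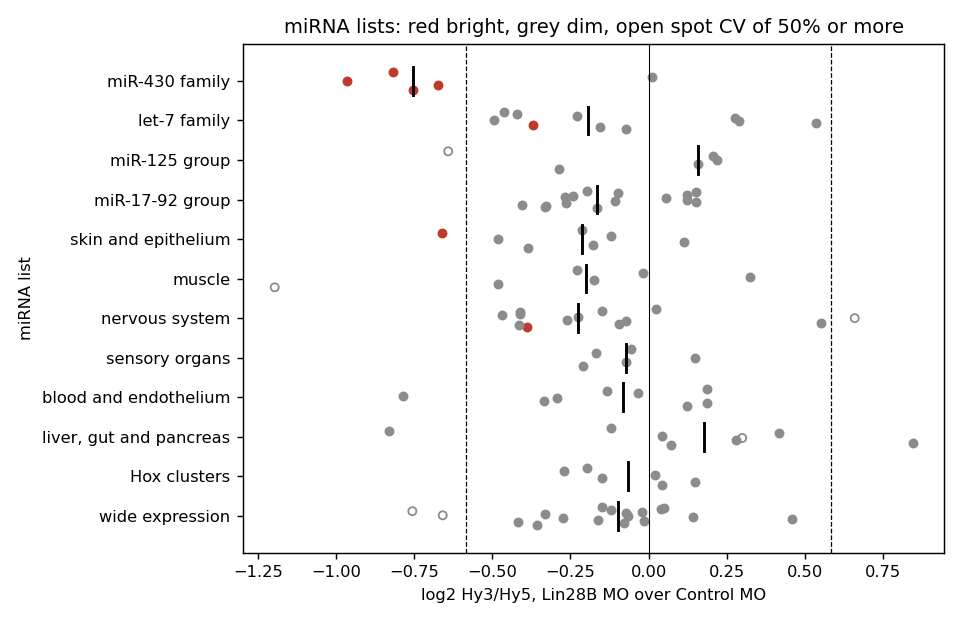
Log2 fold of the Hy3/Hy5 ratio, *lin-28b* MO over control MO, for each miRNA of the 12 lists (red bright, grey dim, open with a CV of 50% or more), with a bar at each list's median and dashed lines at 1.5-fold in both directions. The *miR-430* family, with a median of -0.75, is the list whose median lies past 1.5-fold, while the medians of the other lists lie between -0.23 and 0.18. Of its 5 probes 4 are bright, while the other lists hold 0 or 1 bright probe each, so the lists are not matched for brightness. After each centring tried and after loess the family median was short of 1.5-fold, for instance -0.52 on all zebrafish probes.

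Outside these families few miRNAs of the other lists passed 1.5-fold, and the same held for zebrafish miRNAs at large. Of all 210 zebrafish miRNAs that passed the CV limit, 7 were lower, 6 were higher and 93.8% lay within 1.5-fold. Their median log2 fold was -0.14. Beside these shares, a count of 0 or 1 in either direction does not set a list apart. The *miR-17-92* group, which drives proliferation in mammals, had 15 probes, 0 past 1.5-fold and a median of -0.16, with *miR-92a* and *miR-18c* as its brightest members and a range from -0.40 to 0.15. Of 7 miRNAs of skin and epithelium, 1 was lower, *miR-203a*, and *miR-200b*, which keeps epithelial character in mammals, had -0.18. Of 6 muscle miRNAs, 5 passed the CV limit and 0 passed 1.5-fold, with *miR-133a* at -0.48. Of 13 nervous system miRNAs, 12 passed the CV limit and 0 passed 1.5-fold. The median of all 13 was -0.23, with *miR-7b* at -0.41 and *miR-124*, the main neuronal miRNA, at 0.55. The 5 miRNAs of sensory organs had a median of -0.07, with *miR-96* at -0.21 and *miR-204* at -0.06, and the 6 of the Hox clusters one of -0.06, with *miR-196a* at -0.27 and *miR-10b* at 0.15. Of 8 miRNAs of blood and endothelium, 1 was lower, *miR-150*, while *miR-223* of myeloid cells had -0.13 and *miR-142a-3p* of blood cells had -0.34. The 8 miRNAs of liver, gut and pancreas had a median of 0.18, and 7 of them passed the CV limit. Of these 7, *miR-216b* was lower and *miR-192* higher, whereas *miR-122* of hepatocytes had 0.07 and *miR-375* of pancreatic islets 0.04. The 18 widely expressed miRNAs had a median of -0.10 and 0 past 1.5-fold among the 16 that passed the CV limit. In these lists *miR-203a* and *miR-7a* were the bright members, so most values were measured at signals close to the floor of the array.

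Of all 210 zebrafish miRNAs with a CV under 50%, 197 (93.8%) lay within 1.5-fold, 7 were lower and 6 were higher. Among all 2177 probes measured so, 6.66% were lower and 2.53% were higher. Centring the arrays on the 47 unnamed probes above 100 on both arrays, which moved every fold up by 0.17, gave 4 lower and 13 higher zebrafish miRNAs, and centring on the 102 bright ones, which moved it up by 0.34, gave 1 lower and 20 higher, so the balance of both directions moved with the scale. The median fold was -0.14, with 146 of 210 (69.5%) below 0. Among the 201 dim miRNAs, 2 were lower and 6 were higher. Of the 1865 dim unnamed probes with a CV under 50%, 101 were lower and 49 were higher, so calls in both directions also occurred among unnamed probes at such signals. Within 1.5-fold lay 92.0% of these dim unnamed probes and 96.0% of the dim zebrafish miRNAs. Just outside the limit lay *miR-20a** at -0.57, *miR-454b* at -0.56 and *miR-34b* at -0.55 on the lower side, and *miR-457a* and *miR-124*, both at 0.55, on the higher side.

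The dim miRNAs that were lower were *miR-216b*, of pancreatic acinar cells, and *miR-150*, of mature lymphocytes in mouse. *miR-216b* had a mean Hy3 of 7.62 in *lin-28b* morphants and 10.6 in controls, with a log2 fold of -0.83 in the ratio, -0.48 in Hy3 and 0.37 in Hy5. For *miR-150* the Hy3 spots read 9.33, 9.62, 9.74 and 7.84 in morphants, against 27.4, 57.7, 12.3 and 8.67 in controls. The control spots of *miR-150* ran from the level of the morphant spots to well above it, and its log2 fold was -0.78 (SD 0.37) in the ratio and -1.54 in Hy3.

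The 6 dim miRNAs counted as higher all had a lower Hy5 signal, and none had a Hy3 signal higher past 1.5-fold. They were *miR-133b**, the passenger arm of a muscle miRNA, at 1.06 (SD 0.89), *miR-139* at 0.87, *miR-192*, a miRNA of liver and gut, at 0.84, *miR-456* at 0.81, *miR-22b* at 0.69 and *miR-462* at 0.63. Their log2 folds in Hy3 lay between -0.74 for *miR-133b** and 0.09 for *miR-139*. In Hy5 they lay between -1.48 for *miR-133b** and -0.57 for *miR-462*. Over all 210 miRNAs, whose CV limit is on the ratio, Hy3 alone was lower past 1.5-fold in 29 and higher in 0, and Hy5 was lower in 29 and higher in 2. Among the 1967 unnamed probes under the same limit, Hy3 was lower in 398 and higher in 2, and Hy5 was lower in 408 and higher in 9. On the *lin-28b* MO array 171 spots held the identical pair of values, 3.04 in Hy3 and 6.80 in Hy5, and on the control MO array 124 spots held 3.02 and 5.50. In *lin-28b* morphants *miR-133b** and *miR-22b* had 2 spots each at that pair.

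**Figure D4:**
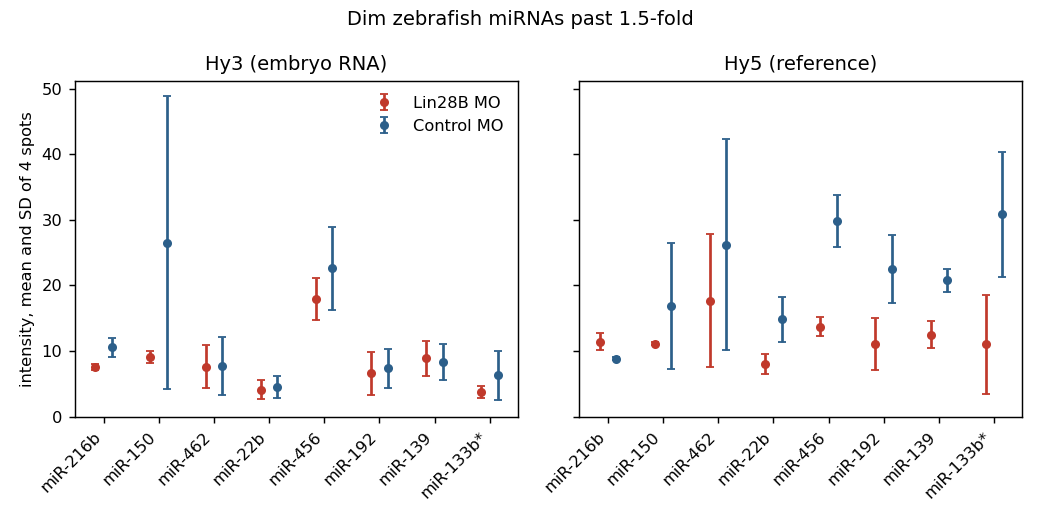
Hy3 (left) and Hy5 intensity (right), mean and SD of the 4 spots, on the *lin-28b* MO array (red) and the control MO array (blue) for the 8 dim zebrafish miRNAs past 1.5-fold in the ratio. For the 6 with a higher ratio the mean Hy5 is lower in *lin-28b* morphants, with log2 folds of -0.57 to -1.48, while the Hy3 means lie closer together, and the bars of *miR-462* overlap in both dyes.

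The fold changed with brightness on this pair of arrays. Among unnamed probes with a CV under 50%, the median log2 fold of Hy3 was -0.04 at a Hy3 signal, as the geometric mean of both arrays, of 10 to 20, -0.70 at 50 to 100, -1.37 at 100 to 200 and -1.02 at 200 to 500. The ratio changed less, with medians of -0.14, -0.27, -0.43 and -0.12 in the same classes. *miR-430a*, *miR-430c*, *miR-203a*, *let-7c* and *miR-17a** lay in the class of 100 to 200, where the ratio of unnamed probes was the lowest of these 4 classes. *miR-430b* and *miR-430j* lay above 500, a class that holds only 9 unnamed probes, with a median of -0.17 in the ratio and -2.07 in Hy3. Bright zebrafish miRNAs had a median ratio fold of -0.66 beside -0.41 for bright unnamed probes, and dim zebrafish miRNAs one of -0.13.

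**Figure D5:**
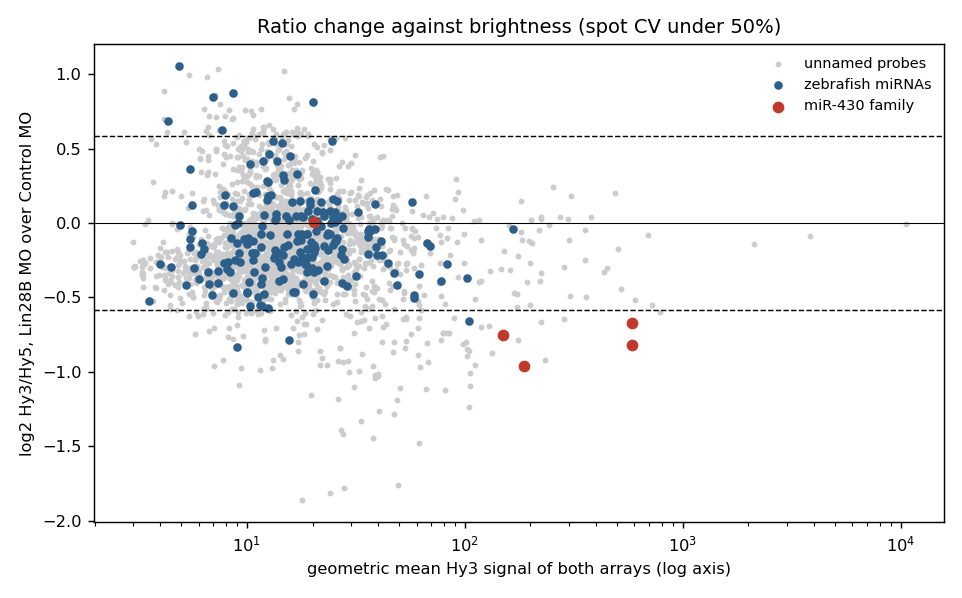
Log2 fold of the ratio, *lin-28b* MO over control MO, against the geometric mean Hy3 signal of both arrays (log axis) for zebrafish and unnamed probes with a CV under 50%, with dashed lines at 1.5-fold. The 4 bright *miR-430* members lie between -0.67 and -0.96, below most unnamed probes over 100, whose class medians lie between -0.43 and -0.12.

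Of 26 passenger (star) arms, 25 passed the CV limit, and among these 0 were lower, 1 was higher and the median was -0.27. In 25 hairpins both arms have a probe. In these, *miR-133b** had 1.06 and *miR-133b* -0.17, *miR-20a** had -0.57 and *miR-20a* 0.06, and *miR-727** had -0.27 and *miR-727* 0.33, so that arms of a hairpin could differ by more than 0.58 on the log2 scale at these signals.

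A spot CV above 50% kept 8 zebrafish miRNAs out of every count. The excess was on the control MO array for 7 of them, *miR-1*, *miR-100*, *miR-18b**, *miR-194b*, *miR-202*, *miR-26a* and *miR-30b*, and on the *lin-28b* MO array for *miR-137*. *miR-26a*, a widely expressed miRNA, read 15.5, 17.1, 18.1 and 14.1 in Hy3 in *lin-28b* morphants, against 219, 16.1, 16.0 and 21.7 in controls. The other 3 control spots overlapped the morphant spots, and the log2 fold of the mean ratio was -0.66. *miR-202*, a miRNA of the gonads, had control spots of 86.4, 233, 8.42 and 7.05 and a log2 fold of -1.34, and *miR-1*, of muscle, had -1.20. Spots over 4 times the median Hy3 of their probe numbered 1 of 872 zebrafish spots on the *lin-28b* MO array and 6 of 872 on the control MO array, and among unnamed probes 5 and 111 of 8328.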

How the data were processed

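Total RNA of injected embryos at 5 hpf was hybridised in Hy3 with the reference in Hy5. The authors deposited spot intensities of both dyes, and a second table with the Hy3/Hy5 ratio of 208 miRNAs on a linear scale. The image analysis is not stated, and for background and normalization the steps taken are likewise not given in the sources used here. Mean spot ratios differ from the deposited ratios by at most 0.396%, and the median deposited ratio is 0.935 for *lin-28b* MO and 1.09 for control MO. No further scaling was applied.

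The members, the 12 miRNA lists and the limits (1.5-fold, CV 50%, Hy3 100) were chosen with earlier results of these data known. Named with values are all bright miRNAs, both families *miR-430* and *let-7*, dim miRNAs past 1.5-fold, the 2 brightest members of each list, and miRNAs on which a small count turns. A rule for dim miRNAs with Hy5 over 100 found none. Those excluded by CV, those just outside the limit and the arms of single hairpins were added after their values were seen. The alternatives were other scalings, limits and summaries, and leaving out each spot. That each condition had 1 array limits the precision. The scripts were tested on simulated data. Python 3.11.15 with numpy 2.4.6, pandas 2.3.3 and matplotlib 3.10.9 was used, and the loess came from limma 3.58.1 in R 4.3.3.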

Additional observations from a re-analysis of the deposited data

Results flagged for a closer look

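The Hy3 landmark spots, which belong to no miRNA and entered no comparison, were brighter on the *lin-28b* MO array than on the control MO array, with medians of 15550 and 13350 over 240 spots each and a log2 difference of 0.22. They were set apart because they carry a signal outside the miRNA probes. Bright unnamed probes had the opposite direction in Hy3, with a median of -1.38 over 102 probes, most of them chosen through the control MO array, and of -1.13 over the 47 above 100 on both arrays.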

How the results depend on the processing

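The 5 lower bright miRNAs became 2 after centring on unnamed probes (the 47 above 100 on both arrays) or on all zebrafish probes, 1 after loess or with Hy3 alone scaled on those 47, 3 with an offset of 50 in both channels and 0 at 2-fold, and 5 to 6 without 1 spot. No setting gave a higher bright miRNA. Over all zebrafish miRNAs the 7 lower became 4, 3, 4 and 4 after centring on unnamed probes, centring on zebrafish probes, loess and the offset, 20 with Hy3 unscaled, 1 with Hy3 scaled, 13 without a CV limit, 0 at 2-fold and 10 to 12 without 1 spot. The 6 higher became 13, 15, 11 and 0 in that order, 0 with Hy3 unscaled, 167 with Hy3 scaled, 1 at 2-fold and 5 to 9 without 1 spot. The bright median of -0.66 became -0.49, -0.43, -0.48 and -0.40 in that order, -1.26 with Hy3 unscaled, -0.17 with Hy3 scaled, -0.39 with a Hy3 limit of 50, -0.75 with one of 200 or with the limit on both arrays, and -0.78 to -0.46 without 1 spot. Centring chosen after seeing the data, on the 102 bright unnamed probes by array medians and by their median fold, gave 1 and 0 lower bright miRNAs, 1 and 0 lower and 20 and 26 higher of all, and bright medians of -0.32 and -0.25. For Hy3 alone the CV limit is on Hy3 spots, which leaves 8 bright miRNAs and 191 in all. Hy3 scaling, by -1.08 on the log2 scale over 47 unnamed probes, moved the median zebrafish miRNA to 0.99. It turned *miR-216b* to 0.60, *miR-430a* to 0.0222, *miR-430b* to 0.55, *miR-430j* to 0.25 and the *miR-430* median to 0.25. Hy3 unscaled turned *miR-133b** to -0.74, *miR-192* to -0.16, *miR-22b* to -0.13, *miR-456* to -0.33 and *miR-462* to -0.0212. The cause was not tested. No paired analysis was possible because each condition has 1 array. Signals near the floor limit what most probes can show.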

Other observations

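The commonest Hy5 value on the *lin-28b* MO array was 11.8, held by 480 spots, and on the control MO array it was 5.50, held by 125 spots. The commonest pair of values gave a ratio of 0.447 on the *lin-28b* MO array and 0.549 on the control MO array. The log2 difference between these ratios was -0.30. All 4 spots of *miR-130b* on the *lin-28b* MO array, and 2 on the control MO array, held the pair of their array. Lower Hy3 values occurred on both arrays. A control MO spot of *miR-194b* read 2.34, and the lowest mean Hy3 of an unnamed probe was 2.99 on the *lin-28b* MO array. Taken spot by spot in the order of the deposited table, bright unnamed probes had median log2 folds of -0.26, -0.46, -0.51 and -0.37 in the ratio, and the bright *miR-430* members -0.75, -0.87, -0.85 and -0.70.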
